A study of Mus musculus with 6 samples.

Results

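Families of enzymes that attach a polar group to drugs, hormones and bile constituents are described here: the UDP-glucuronosyltransferases (Ugt), the sulfotransferases (Sult) and the soluble glutathione S-transferases (Gst). Members were taken by gene symbol alone, as Ugt genes of families 1 to 3, all Sult genes and the alpha, mu, omega, pi and theta classes of Gst. This gave 46 genes of the 30927 measured, 11 Ugt, 18 Sult and 17 Gst genes. The cells were BMEL, an immortalized culture of hepatoblasts, the fetal progenitors of hepatocytes and bile duct cells, derived from the livers of wild-type CD1 mouse embryos at day 12.5. For 48 h, 3 samples carried 500 ng of a double-stranded mimic of miR-337-3p and 3 others 500 ng of a negative control mimic, and RNA was hybridised to Affymetrix arrays. All samples thus share the immortalized, wild-type background and the transfection, and the labels do not say whether the culture is 1 clone or whether replicates were separate cultures. The p-values therefore rest on the spread between these 6 samples alone, and that spread may be technical.

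Glucuronosyltransferases sit in the membrane of the endoplasmic reticulum and use UDP-glucuronic acid as donor. Sulfotransferases of these families work in the cytosol with the donor PAPS, and glutathione S-transferases couple the tripeptide glutathione to electrophilic compounds. In liver and intestine the products are more soluble in water and leave the cell through export pumps, and several of the genes lie in tandem arrays that arose by duplication. Ugt1a genes are a special case, since alternative first exons are joined to shared later exons.

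The mature microRNA is shown because its seed, bases 2 to 8 from the 5′ end and in capitals, is the stretch that usually pairs with target transcripts. The sequence is the RefSeq entry of build GRCm38.p6 at chr12:109585850-109585871, plus strand. Whether these genes hold sites for it was not analysed here.
mmu-miR-337-3p: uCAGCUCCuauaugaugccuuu

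Of the 46 conjugating enzyme genes 6 fell after miR-337-3p mimic and 0 rose, at an adjusted p under 0.05 in limma with Benjamini-Hochberg adjustment over all genes. Over all genes tested 1.68% fell and 1.89% rose by that rule. The 6 were Ugt2b5, Ugt2b34, Ugt2b35, Sult1d1, Sult1b1 and Gsta1. At an unadjusted p under 0.05, 14 members were lower and 0 higher, against 6.38% and 8.70% of all genes. Of the 46, 36 had a log2 difference below 0 and 10 above, with a median of -0.19 against 0.02 over all genes. A log2 difference of -1 or below was found for 8 members, untested, and for 1.34% of all genes. For 14 members every mimic array was lower than every control array, and for 1, Ugt3a2, every one was higher, where 8.33% and 11.2% of all genes did so. With the replicate number as a block, 12 members fell and 0 rose, against 3.88% and 4.70% of all genes. The 6 further genes were Gsta3, Gsta4, Gstt3, Ugt1a1, Ugt2b1 and Sult2b1.

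**Figure D1:**
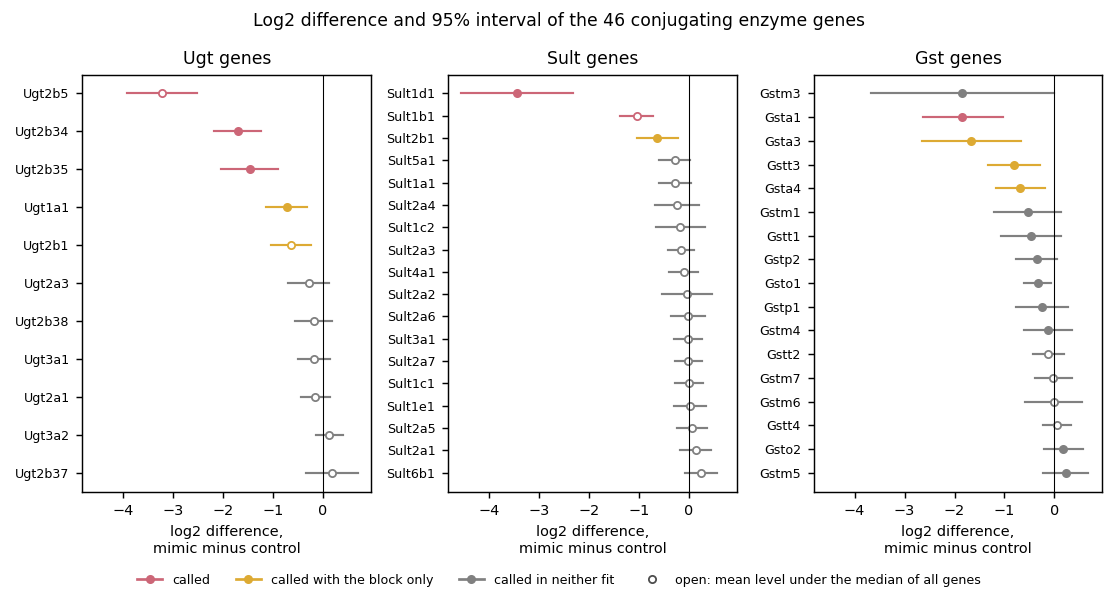
Log2 difference (x axis, mimic minus control) of each of the 46 genes by family, with limma's 95% interval as the bar, red for genes called, yellow for genes called only with the replicate block, grey for neither. The 12 coloured genes all lie left of 0, and open symbols mark genes whose mean signal is under the median of all genes, 4.89.

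The array files hold no detection call, so low signals may be background. Of the 46 members, 18 had a mean over the 6 arrays at or above 4.89, the median of such means over all genes. That mean takes in both groups, so a gene can pass it through its control arrays alone. Ugt2b35 and Gstm3 did so, with mimic means of 4.70 and 4.15, and no count of calls is read from this split. The other 28 members, Ugt2b5 and Sult1b1 among them, had means below it. Ugt2b5 did so through its mimic arrays alone, with a control mean of 6.28. A change in a gene that reads near background on all arrays could not be seen with these data. Close paralogs may share probes in all 3 families, so how a signal divides among near-identical genes is uncertain. A lower signal in these bulk samples can come from fewer cells that express a gene or from less RNA per cell, and these cannot be told apart.

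Glucuronosyltransferase falls were found in the Ugt2b subfamily, whose enzymes act on steroids, bile acids and many drugs, with 3 of 6 measured members called. Ugt2b5 (transcript cluster 17449346) read 6.86, 5.99 and 5.98 on the log2 scale in the control samples and 2.54, 3.08 and 3.57 in the mimic samples. The highest mimic array thus lay far below the lowest control array. The log2 difference was -3.22 (SE 0.31, adjusted p = 0.00330 in limma), or 9.30-fold lower. The mimic values lie under the array median, so any background in them would make this fold an understatement.

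Ugt2b34 (17449313) read 12.22, 11.94 and 11.86 in control samples and 9.88, 10.31 and 10.68 in mimic samples. It stayed well above the array median in both groups while falling 3.28-fold, a log2 difference of -1.71 (SE 0.21, adjusted p = 0.00626 in limma). Ugt2b35 read 6.57, 6.25 and 5.70 in control samples and 4.28, 4.88 and 4.93 in mimic samples, so the groups did not overlap. It fell by 1.47 on the log2 scale (SE 0.25, adjusted p = 0.0191 in limma).

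Ugt2b1 read 4.75, 4.23 and 4.17 against 3.88, 3.65 and 3.71, values under the array median in both groups that did not overlap. Its log2 difference was -0.64 (SE 0.18, adjusted p = 0.1 in limma, 0.0222 with the block). Ugt1a1, the enzyme that conjugates bilirubin, read 6.15, 5.58 and 5.50 in control samples and 5.00, 5.00 and 5.01 in mimic samples. The mimic values were nearly equal and all lay below the controls, with a log2 difference of -0.73 (SE 0.18, adjusted p = 0.0682 in limma, 0.0280 with the block). It was the 1 row under a Ugt1a symbol, and whether its probes lie in the exons shared by all Ugt1a transcripts is not stated in the labels or files used.

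The other 6 Ugt genes, Ugt2a1, Ugt2a3, Ugt2b37, Ugt2b38, Ugt3a1 and Ugt3a2, had mean control signals of 3.56 or less and log2 differences from -0.29 (Ugt2a3) to 0.18 (Ugt2b37). None of the 6 passed in limma with or without the block. For Ugt3a1 the 95% interval of the difference ran from -0.51 to 0.14.

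Among sulfotransferases the 2 that fell both belong to the Sult1 subfamily, which acts mainly on phenols, catecholamines and thyroid hormones. Sult1d1 (17449406), which sulfates catecholamines such as dopamine in mice, read 9.64, 8.58 and 8.75 in control samples and 4.32, 6.10 and 6.22 in mimic samples. Mimic replicate 1 stood below the other mimic arrays, and all 3 lay below the controls. The log2 difference was -3.44 (95% interval -4.56 to -2.32), or 10.9-fold lower (adjusted p = 0.00971 in limma). Between arrays of the same replicate number it was -5.32, -2.48 and -2.53.

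Sult1b1 (17449394), which acts on phenols and thyroid hormones, read 4.56, 4.17 and 4.36 in control samples and 3.23, 3.47 and 3.28 in mimic samples. These are dim values in both groups, and the groups did not overlap. It fell by 1.04 on the log2 scale (SE 0.14, adjusted p = 0.00903 in limma).

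Sult2b1, which sulfates cholesterol and other hydroxysteroids, read 7.18, 7.02 and 6.76 against 6.12, 6.67 and 6.26. The groups were separate by a small margin, at a log2 difference of -0.63 (SE 0.18, adjusted p = 0.111 in limma, 0.0490 with the block). The remaining 15 Sult genes were not called in either fit. All 15 had means over the 6 arrays under 4.89, though Sult1a1 and Sult1c2 reached the array's own median on single arrays. The brightest were Sult1a1, a phenol sulfotransferase, with a log2 difference of -0.27 (95% interval -0.59 to 0.05), Sult1c2 with -0.17 (-0.65 to 0.32), Sult4a1, a brain form, with -0.10 (-0.40 to 0.19) and Sult6b1 with 0.25 (-0.07 to 0.56). Sult6b1 has a dimmer row that read lower in mimic samples, by -0.14, so its rows differ in sign.

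The other 11 of these were Sult1c1, the estrogen sulfotransferase Sult1e1, Sult3a1, Sult5a1 and Sult2a1 to Sult2a7, the subfamily that sulfates hydroxysteroids and bile acids. They had log2 differences from -0.28 (Sult5a1) to 0.14 (Sult2a1).

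Both Sult1 genes that fell and all 3 Ugt2b genes that fell lie in 1 run of Ugt2 and Sult1 genes on chromosome 5. The RefSeq gene table places 13 protein-coding genes of these families there with no other protein-coding gene between them, and 11 were measured. Of the 11, 5 fell and 0 rose, and of the 35 members elsewhere 1 fell and 0 rose, where 1.68% of all genes fell. With the replicate block, 6 of the 11 and 6 of the 35 fell and 0 rose, where 3.88% of all genes fell. This split was made after the values were seen and was not tested. Within the run the genes that fell were not all neighbours. In order along the chromosome, Ugt2b34 fell, Ugt2b1 passed only with the block, and Ugt2b35 and Ugt2b5 fell. Then Ugt2b37, Ugt2a3, Ugt2b38 and Ugt2a1 were not called, Sult1b1 and Sult1d1 fell, and Sult1e1 had a log2 difference of 0.02. The 5 genes not called in either fit had mean control signals from 2.90 to 3.48, where a fall could hardly be seen. The nearest measured protein-coding gene on the Ugt2b34 side, Ythdc1, which encodes a reader of methylated RNA, averaged 9.66 and 9.76, a difference of 0.11 in log2 units (limma adjusted p = 0.833). The casein gene Csn1s1 on the other side read 2.83 and 2.87.

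**Figure D2:**
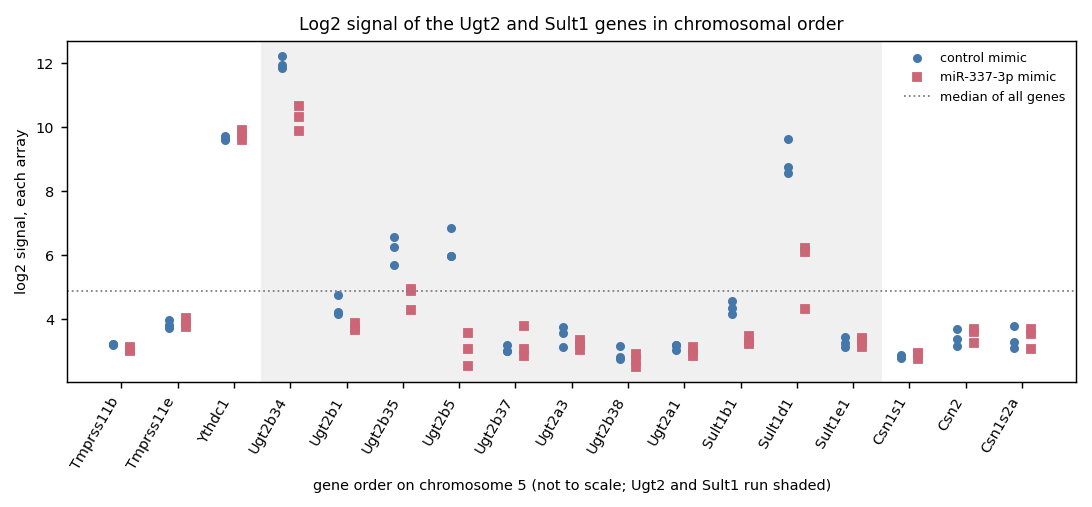
Log2 signal of each array (y axis) for the measured Ugt2 and Sult1 genes in the order of the RefSeq gene table on chromosome 5 (shaded, not to scale) and 3 measured genes on each side, blue for control and red for mimic samples. Ugt2b34, Ugt2b35, Ugt2b5, Sult1b1 and Sult1d1 are the 5 genes called, and levels of different genes come from different probes and are not to be compared.

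The 250 bases before the start site are shown for the 2 deepest falls, Sult1d1 and Ugt2b5, and for Gsta3, which passed with the replicate block and whose promoter holds a match to the antioxidant response element core. They are RefSeq sequences of build GRCm38.p6, 5′ to 3′ on the strand of the gene, with the match in capitals. No match to the motifs searched lies in the Sult1d1 and Ugt2b5 windows.
Sult1d1, chr5:87569007-87569256, minus strand: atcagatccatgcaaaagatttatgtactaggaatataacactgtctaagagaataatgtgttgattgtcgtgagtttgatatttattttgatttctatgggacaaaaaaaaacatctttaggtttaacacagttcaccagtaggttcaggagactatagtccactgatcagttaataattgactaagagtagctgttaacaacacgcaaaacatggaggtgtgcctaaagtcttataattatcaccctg
Ugt2b5, chr5:87140341-87140590, minus strand: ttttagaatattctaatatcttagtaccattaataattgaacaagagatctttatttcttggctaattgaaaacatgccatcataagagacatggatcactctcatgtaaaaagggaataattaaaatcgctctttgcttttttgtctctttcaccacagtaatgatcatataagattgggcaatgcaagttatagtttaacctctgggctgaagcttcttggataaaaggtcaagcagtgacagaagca
Gsta3, chr1:21240335-21240584, plus strand: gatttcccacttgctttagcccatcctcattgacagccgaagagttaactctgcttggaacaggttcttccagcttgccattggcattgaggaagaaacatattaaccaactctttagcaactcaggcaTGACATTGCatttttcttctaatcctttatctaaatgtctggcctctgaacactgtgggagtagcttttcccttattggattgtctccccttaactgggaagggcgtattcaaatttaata

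The motifs were the core TGACNNNGC of the antioxidant response element, which NRF2 binds, and the CDX motif TTTATNG, each searched on both strands over 300 bases that include 50 after the start. Promoters were in the table for 39 members, among them the 6 that fell, of which 0 held either motif. In Gsta3 the antioxidant core is on the forward strand and starts 121 bases before the start site. Some genes have several promoters, and the 39 members have 48. That core was in 3 of the 48 promoters, those of Gsta3, Gstm5 and Gstm7, or 6.25% against 12.4% of all 32851 promoters, and the CDX motif in 5, or 10.4% against 10.9%. These are matches of letters in a short window, promoters of paralogs share sequence, and base composition was not matched.

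The 1 glutathione S-transferase that fell, Gsta1, belongs to the alpha class, which is abundant in liver and intestine and conjugates lipid peroxidation products and carcinogen epoxides. Gsta1 (17519658) read 11.47, 11.30 and 10.33 in control samples and 8.92, 9.87 and 8.80 in mimic samples. The groups did not overlap, and control replicate 3 lay closest to the mimic arrays. Gsta1 fell 3.57-fold, a log2 difference of -1.84 (SE 0.35, adjusted p = 0.0301 in limma).

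Gsta3, which in mice detoxifies aflatoxin epoxide, read 6.95, 7.85 and 6.21 against 4.55, 5.66 and 5.80. The groups did not overlap, but the spread within each was wide, and the log2 difference of -1.66 (SE 0.44) had an adjusted p of 0.0881 in limma and 0.0293 with the block. Gsta4, which acts on the lipid aldehyde 4-hydroxynonenal, read 12.03, 12.02 and 11.34 against 10.97, 11.40 and 10.98. Here control replicate 3 lay below mimic replicate 2, so the groups overlapped, at a log2 difference of -0.68 (SE 0.22, adjusted p = 0.152 in limma, 0.0349 with the block). All 3 measured alpha class genes thus passed with the block and 1 without it.

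Gstt3, of the theta class that acts on small halogenated compounds, read 6.73, 6.73 and 6.02 against 5.43, 6.00 and 5.62. Control replicate 3 lay just above mimic replicate 2, so the groups nearly met, with a log2 difference of -0.81 (SE 0.23, adjusted p = 0.108 in limma, 0.0321 with the block, and 0.0399 without control replicate 3).

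Pi and omega class genes of high signal moved little. Gstp1 and Gstp2, near-identical neighbours that a probe may not separate, had log2 differences of -0.24 (95% interval -0.76 to 0.28) and -0.35 (-0.76 to 0.06). Gsto1, a thioltransferase that also reduces dehydroascorbate, read 11.13, 11.17 and 11.24 against 10.88, 10.78 and 10.87. The groups were tight and did not overlap, at a log2 difference of -0.33 (-0.60 to -0.07, adjusted p = 0.194 in limma). Gsto2 had a log2 difference of 0.18.

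None of the 6 mu class genes passed with or without the block. Gstm5 had a log2 difference of 0.23 (95% interval -0.22 to 0.67), and Gstm1, Gstm4, Gstm6 and Gstm7 lay between -0.53 and -0.01. Gstm3, chosen after its values were seen, read 8.13, 5.46 and 4.39 in control samples and 3.95, 4.79 and 3.72 in mimic samples. Its log2 difference of -1.84 was as large as that of Gsta1, but 1 control array carried most of it and the groups overlapped (SE 0.80, adjusted p = 0.329 in limma). In the theta class Gstt1, Gstt2 and Gstt4 had log2 differences of -0.47, -0.12 and 0.05.

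**Figure D3:**
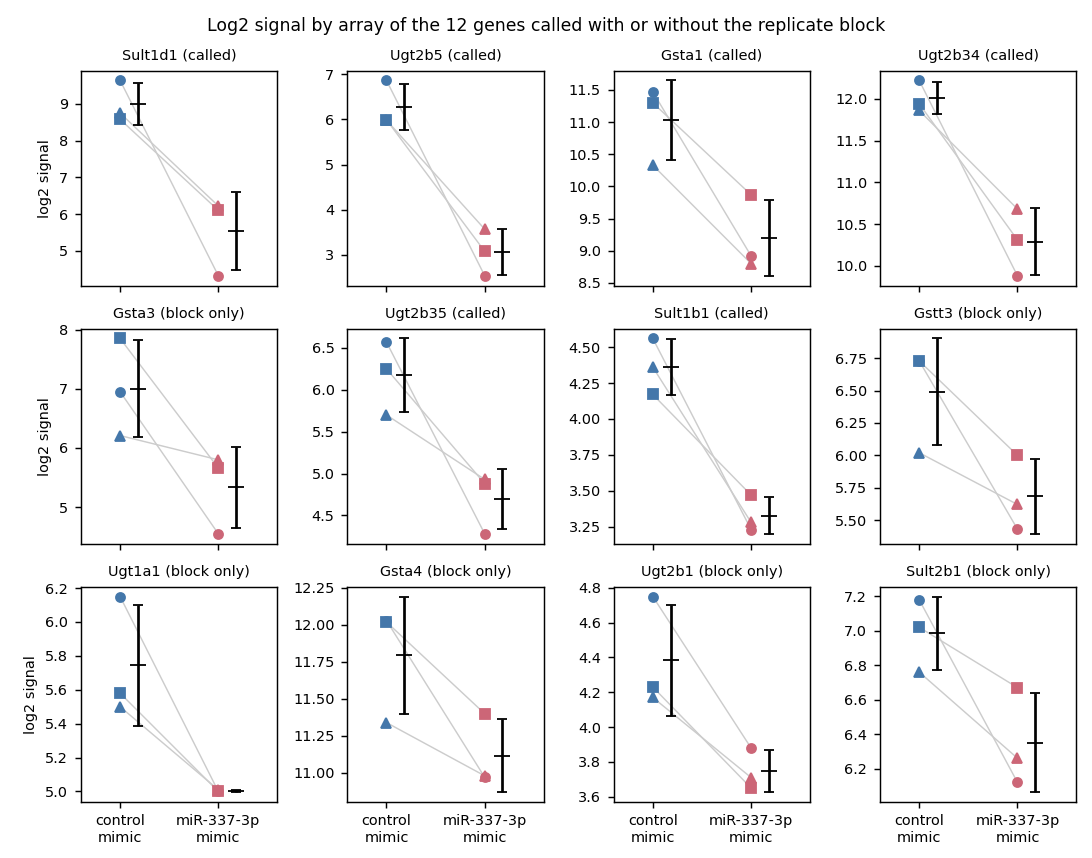
Log2 signal of each array (y axis, own scale per gene) for the 12 genes called with or without the replicate block, with replicates 1, 2 and 3 as circles, squares and triangles, grey lines joining arrays of the same number and black bars for mean ± SD of 3 arrays. Every line runs downward, and the line of replicate 1 is the steepest for each of the 12.

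Replicate 1 carried the widest gap for these genes. For all 6 called members the difference between arrays of the same number was largest in number 1, as it was for 77.5% of the 519 genes that fell and 48.3% of the 584 that rose. Fits on 4 arrays made fewer calls whichever number was left out: 2 members passed without both arrays of number 1, 3 without number 2 and 2 without number 3. Ugt2b5 passed in all 3 of these fits, and the 6 members had log2 differences below 0 in each. Without both arrays of number 1, Sult1d1 had a difference of -2.50 in log2 units (limma adjusted p = 0.0235) and Ugt2b5 one of -2.66 (adjusted p = 0.0307). The adjusted p-values of the others were then 0.0576 for Ugt2b34, 0.111 for Sult1b1, 0.133 for Ugt2b35 and 0.278 for Gsta1, with log2 differences from -1.48 to -0.89. With 1 array left out, Ugt2b5, Ugt2b34, Sult1b1 and Sult1d1 passed in all 6 fits. Ugt2b35 did not pass when control replicate 1, control replicate 2 or mimic replicate 1 was left out (highest adjusted p = 0.0764 in limma). Gsta1 did not pass in those 3 fits or in the fit lacking mimic replicate 3 (highest adjusted p = 0.119). In the authors' deposited table, whose FDR p-values come from an ANOVA, 5 rows in all were under 0.05 and 0 of the 46 members, with a lowest member FDR of 0.143. Before adjustment, the authors' deposited table gives 12 members an ANOVA p under 0.05. Its signed folds, given beside bi-weight averages, were -7.58 for Ugt2b5, -5.73 for Gsta1 and -5.69 for Sult1d1. Here these genes were 9.30-, 3.57- and 10.9-fold lower, so sizes and order differ. For Ugt2b34, Ugt2b35 and Sult1b1 the deposited folds, -3.11, -2.45 and -2.14, were closer to those found here.

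Some genes that supply the co-substrates of these enzymes fell. The shares of all genes called, 1.68% lower and 1.89% higher, or 3.88% and 4.70% with the block, stand beside each list count that follows. All 10 genes listed for making and moving UDP-glucuronic acid had a log2 difference below 0, at a median of -0.48 against 0.02 over all genes, and 2 fell and 0 rose. Ugp2, which makes UDP-glucose, read 10.08, 10.22 and 9.88 in control samples and 8.66, 9.18 and 9.00 in mimic samples. It fell by 1.11 on the log2 scale (adjusted p = 0.0119 in limma). Slc35d1, which carries UDP-glucuronic acid into the endoplasmic reticulum, fell by 0.99 (adjusted p = 0.0257). Ugdh, which oxidises UDP-glucose to the glucuronic acid donor, differed by -0.60 on the log2 scale (adjusted p = 0.0979 in limma, 0.0288 with the block), and with the block 5 of the 10 passed, all lower.

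Of 9 genes of PAPS and sulfate handling 3 fell and 0 rose, at a median of -0.34. Papss2, the synthase of the sulfate donor, read 10.02, 9.93 and 9.84 against 8.78, 8.77 and 8.80. Replicates were tight in both groups, and the log2 difference was -1.15 (SE 0.12, adjusted p = 0.00373 in limma). Suox, sulfite oxidase, fell by 1.24 (adjusted p = 0.0191) and Bpnt1, which breaks down the spent donor, by 0.90 (adjusted p = 0.0324).

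Of 21 glutathione genes 1 fell and 0 rose, at a median of -0.09. Glutathione synthetase (Gss) fell by 0.82 (adjusted p = 0.0290 in limma), a call lost with array medians subtracted, while the catalytic and modifier subunits of glutamate-cysteine ligase, Gclc and Gclm, differed by -0.73 (log2, adjusted p = 0.0730, blocked 0.0482) and 0.10 (log2, adjusted p = 0.898). With the block 3 passed, all lower.

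**Figure D4:**
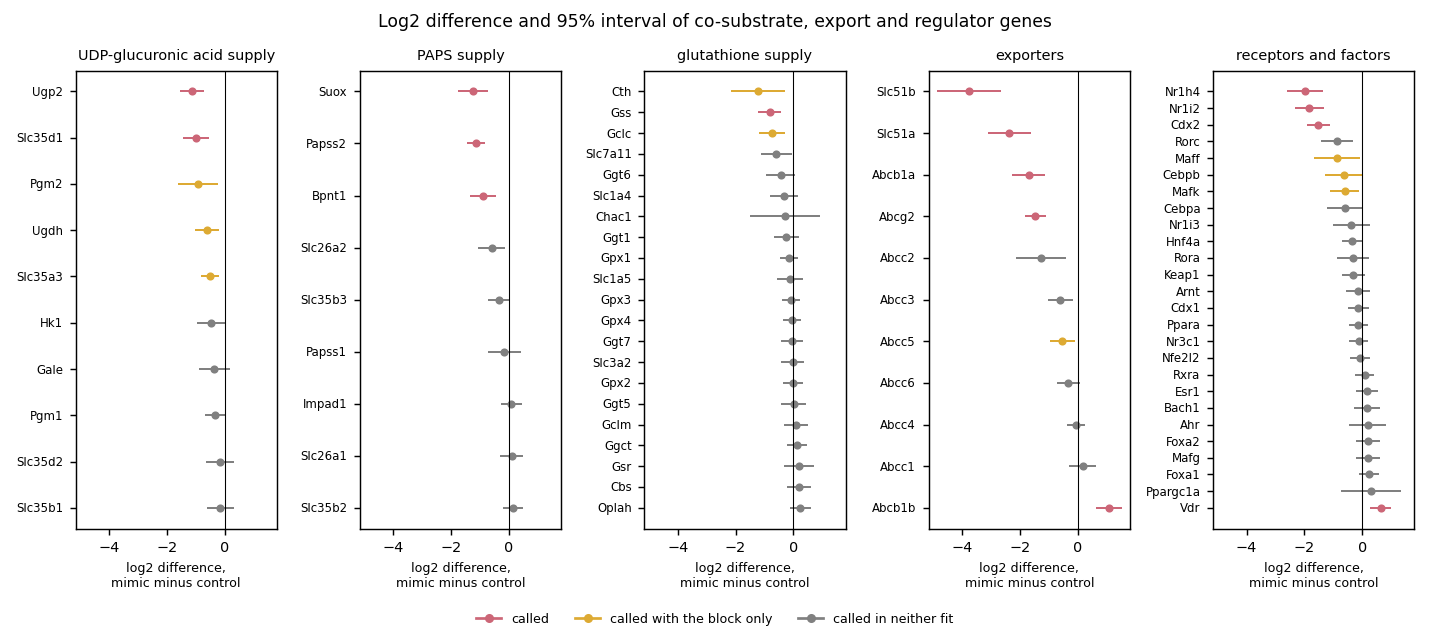
Log2 difference (x axis, mimic minus control) with limma's 95% interval for genes of co-substrate supply, of export and of regulation, red for genes called, yellow for genes called only with the replicate block, grey for neither. All 10 UDP-glucuronic acid genes lie left of 0, and among the receptors and factors Nr1h4, Nr1i2 and Cdx2 are the 3 called lower.

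Among 15 measured transferases and relatives outside the symbol rule, 2 fell and 1 rose. Microsomal Mgst1 fell by 1.06 (adjusted p = 0.0175 in limma) and Clic5, a chloride channel protein with a glutathione transferase fold, had a log2 difference of -1.97 (adjusted p = 0.0103). Gstcd, which holds a transferase C-terminal domain, rose by 0.75 (adjusted p = 0.0171). Of 18 other conjugating enzymes, such as methyl- and acetyltransferases, and of 8 genes listed for removing conjugates, 0 were called in limma. In that limma fit, 1 gene of the first list and 2 of the second had an unadjusted p under 0.05. The 2 differed in direction, with log2 differences of 0.39 for Gusb and -0.63 for Ephx1. Ephx1 and Ephx2 of the second list are epoxide hydrolases, which act on epoxides and do not remove conjugates. With the block, Tpmt, a thiol methyltransferase, passed at a log2 difference of 0.70 (blocked adjusted p = 0.0229 in limma, 0.0800 without it). Of 11 export genes 4 fell and 1 rose, and with the block 5 fell and 1 rose, Abcc5 being the further gene (blocked adjusted p = 0.0245). Abcg2, a pump of sulfate conjugates, fell by 1.47 (adjusted p = 0.00330), the drug pump Abcb1a by 1.70 (adjusted p = 0.00857), and the transporter subunits Slc51a and Slc51b had log2 differences of -2.37 and -3.77 (adjusted p = 0.00754 and 0.00663). Abcb1b, the paralog of Abcb1a, rose by 1.08 (adjusted p = 0.0180).

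Of 26 receptors and factors known to regulate conjugating enzymes, 3 fell and 1 rose, at a median of -0.14, and with the block 6 fell and 1 rose. Nr1i2, the xenobiotic receptor PXR, read 8.89, 8.22 and 8.38 in control samples and 6.37, 6.77 and 6.83 in mimic samples, without overlap (adjusted p = 0.00479 in limma). The intestinal factor Cdx2 read 8.62, 8.84 and 8.45 against 6.96, 7.33 and 7.05, again without overlap (log2 difference -1.52, adjusted p = 0.00373). The bile acid receptor Nr1h4 averaged 8.57 in control and 6.6 in mimic samples (adjusted p = 0.00741). The vitamin D receptor Vdr rose by 0.65 (adjusted p = 0.0479). The log2 differences of Nr1i3 (CAR), Ahr, Nfe2l2 (NRF2) and Hnf4a were -0.37, 0.19, -0.07 and -0.35, with adjusted p-values from 0.271 to 0.895. Of 17 other NRF2 targets, Srxn1, a sulfiredoxin, fell by 0.57 (adjusted p = 0.0478 in limma) and 0 rose. The median was -0.43, and 5 fell with the block. Gclc, Gclm and Slc7a11 are in both this list and the glutathione list, so the blocked fall of Gclc counts in both.

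Fits on 4 arrays also lowered these list counts. Without both arrays of number 1, 2 or 3, the export genes that fell in limma were 1, 3 and 0 and the receptors and factors that fell were 1, 3 and 0. The PAPS genes that fell were then 0, 1 and 0, the other transferases that fell 0, 1 and 0, and 0 genes of the UDP-glucuronic acid, glutathione and NRF2 lists passed in any of the 3. With 1 array left out, Papss2, Abcg2, Abcb1a, Slc51a, Slc51b, Nr1i2, Nr1h4 and Cdx2 passed in all 6 fits. Ugp2 and Clic5 passed in 5, Mgst1 in 4, Suox in 3, Gss and Gstcd in 2, Slc35d1, Bpnt1 and Abcb1b in 1, and Vdr and Srxn1 in 0.

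Markers of cell types were read beside these values. Of 7 hepatoblast markers, 6 had means above the array median, and Dlk1, at 4.71 in control samples, was near it. Epcam fell by 1.00 (adjusted p = 0.00682 in limma) and Alcam rose by 0.71 (adjusted p = 0.0270). Of 6 cholangiocyte markers 2 fell and 1 rose, and their summed signal was 11.99 to 12.24 in control and 11.94 to 12.29 in mimic samples. Cftr and Slc10a2 had log2 differences of -2.23 and -2.51 (adjusted p = 0.00373 and 0.00751 in limma), and Spp1 rose by 2.42 (adjusted p = 0.00648), each also in all 6 fits with 1 array left out. Of 6 enterocyte markers 5 fell and 0 rose, Cdx2 among them, and their summed signal, the log2 of the sum of linear values, went from 12.18 to 12.50 in control samples to 10.35 to 11.07 in mimic samples. The brush border gene Vil1 averaged 10.63 and the alkaline phosphatase Alpi 11.45 in control samples, so a line labelled as hepatoblasts carried intestinal genes at high signal, while lactase (Lct) was at 4.51. Summed hepatocyte markers read 12.49 to 12.69 in control samples and were lower in all mimic samples, from 11.93 upward. Of the 8, 2 fell and 0 rose, with the block 5 fell and 0 rose, and 2 had differences above 0. Ttr and Apob, the 2 called, had log2 differences of -1.22 and -0.52. Fabp1, Alb and Cps1 passed only with the block, at -2.48, -1.14 and -0.97. Each summed signal mostly follows its brightest marker. In control samples this was Apob for hepatocytes, at 12.38, and Krt19 for cholangiocytes, at 11.53. Stellate and fibroblast markers summed to 7.67 to 7.78 and 7.67 to 7.86, with Col1a1 called higher by 0.59 in log2 units (limma adjusted p = 0.0384), and the 4 endothelial markers, all under the array median, to 6.23 to 6.46 and 6.24 to 6.44. Of 4 macrophage and blood cell markers measured, Cd68 rose, and the sum went from 7.35 to 7.77 up to 8.15 to 8.79, with Ptprc under the array median. The part of such shifts in the changes of conjugating enzymes was not tested.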

How the data were processed

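Total RNA of 6 samples was labelled as biotinylated cRNA and hybridised to Affymetrix arrays, per the labels' protocols, which name 3 replicates in each group. The deposited log2 signals, 1 per transcript cluster and array, were used as given. How the arrays were normalized and background-corrected, with which software and on which array type, is not stated in the labels or headers. Per the file headers, the authors' comparison file holds bi-weight group averages on the log2 scale, a signed fold change given as a score, a linear ratio, and ANOVA and FDR p-values. That source named genes for 32453 rows, and for each of 30927 symbols the row of highest mean was kept, as for Sult6b1, the 1 member with several rows.

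Groups were compared by lmFit and eBayes of limma 3.58.1 under R 4.3.3, without the trend and robust options, adjusted by Benjamini-Hochberg over all genes and called at an adjusted p under 0.05. Errors are limma's SEs. Steps were tested on simulated data. Tables were handled with the R package data.table (version 1.17.8), pandas 2.3.3 and numpy 2.4.6 in Python 3.11.15, and plots matplotlib 3.10.9. Members and lists were chosen with earlier results of these data known. Text values were given for members called with or without the block, the 6 of highest signal per family, members without overlap at a log2 difference of 1 or more, called genes of the lists and a few preset regulators and supply genes. Replicate numbers pair the arrays by the values, not by the labels: same-numbered arrays had deviations from their group means that correlated at 0.431, 0.370 and 0.442, against at most -0.119 for different numbers, partly by construction. The number of arrays limits precision, with a median SE of 0.15. Protein comparisons were not run, and proteins were not used here. Some regulator genes and a motif of the lists are not reported here.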

Additional observations from a re-analysis of the deposited data

How the results depend on the processing

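No member of the 3 families rose under any alternative tried, and no called member changed direction. The count of 6 falling members was 6 with array medians subtracted, with quantile normalization, with the trend and robust options and with every row fitted, and 5 without dim genes, which leaves out Ugt2b5 and Sult1b1 and adds Ugt1a1. It was 12 with the replicate block, 4 to 7 without any 1 array, 2, 3 and 2 without both arrays of number 1, 2 or 3 and 0 with an ordinary ANOVA, which called 4 genes in all, 2 lower and 2 higher. Over all genes, 519 fell and 584 rose, against 1200 and 1454 with the replicate block and 51 and 26 without both arrays of number 1, 211 and 138 without number 2, and 31 and 18 without number 3 (numbers 2 and 3 were added after seeing the data). Between 172 and 358 fell and 150 and 363 rose without any 1 array, where fewer arrays were fitted, and 351 rose with array medians subtracted. Among the named members 2 of 328 values changed sign: Sult4a1, at 0.0 without both arrays of number 2 (adjusted p = 0.998 in limma), and Sult1c2, whose log2 difference ran from -0.38 without mimic replicate 3 to 0.0 without mimic replicate 1 (adjusted p = 0.999 in limma). The cause of these shifts was not tested. The blocked fit changed no call of the 6 members. Of the 46 genes, 28 had means under the median of all genes. Dim signals limit what can be seen in these, apart from Ugt2b5, which read above that median in control samples.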
